A study of Mus musculus with 31 samples.

Results

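The genes described here are those of the synaptic vesicle and SNARE machinery. They were chosen by symbol alone, as protein-coding genes of the GENCODE M21 mouse annotation named Syt, Stx, Vamp or Rab3 with a number or letter, Snap23, Snap25, Snap29, Snap47 or Snap91, Syn1 to Syn3, Sv2a to Sv2c and Cplx1 to Cplx4. The rule found 59 genes among the 22028 protein-coding genes and 55536 gene identifiers of the count tables. They comprised 17 synaptotagmins, 15 syntaxins, 8 VAMPs, 5 SNAP genes, 4 complexins, 4 Rab3 genes, 3 synapsins and 3 Sv2 genes. For description, 29 were listed as machinery of regulated transmitter release and 29 as genes of broader membrane trafficking, while Vamp9 stood in neither list.

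Neurons release transmitter when a vesicle SNARE protein, usually VAMP2, zips together with SNAP25 and a syntaxin on the plasma membrane and so pulls the membranes into fusion. Synaptotagmins sense calcium and complexins clamp and assist the SNARE complex, while synapsins, SV2 proteins and Rab3 GTPases sit on the vesicle and organise its storage, filling and delivery. Other syntaxins, VAMPs and SNAP proteins run fusion steps between the endoplasmic reticulum, Golgi, endosomes and plasma membrane in nearly every cell. The proteins of nerve terminals are largely carried there from the soma, and axons also hold ribosomes and mRNA of their own.

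Ribosome-bound RNA was purified from mouse tissue by translating ribosome affinity purification (TRAP), in which a GFP tag on ribosomal protein L10a is the handle for the pulldown, and was sequenced from libraries made with a template-switching kit for very small inputs. Cre libraries came from mice with both alleles, Nav1.8-Cre and L10a-eGFP-fl/fl, in which Cre recombinase from the Nav1.8 locus (Scn10a, a sodium channel gene of nociceptors) turns on the tagged protein. Control libraries came from L10a-eGFP-fl/fl mice, which carry the same floxed allele without Cre, so that their RNA is what the procedure recovers with no tag expressed. The tag marks every cell in which Nav1.8-Cre has been active, and tissue from more than sensory neurons went into each pulldown.

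The 31 libraries formed 8 groups. Batch 1 held central axons (lumbar dorsal roots with spinal cord) and somas (lumbar dorsal root ganglia), with 4 Cre and 4 control libraries of each. Batch 2 held peripheral axons (sciatic nerve), with 4 Cre and 3 control libraries, and further somas, with 4 of each. Total counts ran from 3.60 M to 19.6 M per library, M standing for mega. In the batch 1 somas, 2 control libraries shared a column name and are called replicates a and b. Levels are given as CPM, a gene's counts scaled to a common library total, and between genes as CPM per kilobase of exon.

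Several facts about the libraries bear on the results. Scn10a stood at 421, 105, 123.4 and 45.1 CPM in Cre-positive central axons, against 2.10, 0, 0 and 29.9 CPM without Cre, but at 383, 33.4, 625 and 89.2 CPM in the batch 1 soma controls, within the Cre range of 312 to 505 CPM in part. In peripheral axons it stood at 42.1, 304, 116 and 156 CPM with Cre and at 127, 38.1 and 0 CPM without. The batch 2 somas had 335, 374, 313 and 432 CPM with Cre and 303, 295, 598 and 286 CPM without. Cre and control libraries thus overlapped in both compartments of batch 2. Control libraries of ganglia therefore held neuronal RNA as well. Batch 1 soma control replicate 3 received a TMM scaling factor of 0.0547 and stood apart from the others. The count tables also treated overlapping genes differently: of the genes whose exons lie wholly within exons of an opposite-strand gene with at least 1000 counts, 0 of 214 had 10 counts or more in the batch 1 table and 173 of 228 (75.9%) in the batch 2 table. Exons of 17 of the 59 members overlap a gene on the opposite strand, 10 of them over more than 5% of their length.

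Vamp2, Snap25 and Syt1 mark the 3 parts of the release apparatus, namely the vesicle SNARE, the plasma membrane SNARE and the calcium sensor. Vamp2 stood at 1099, 919, 1401 and 944 CPM in the 4 central axon Cre libraries and at 137, 333, 228 and 315 CPM in the 4 peripheral axon Cre libraries. In the Cre somas it stood at 1258, 1240.1, 858 and 742 CPM in batch 1 and at 893, 862, 764 and 1089 CPM in batch 2. The peripheral axon Cre libraries were thus below each library of the other 3 Cre groups, while central axons and somas overlapped.

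Control libraries were not free of Vamp2. It stood at 761.7, 573, 499 and 716 CPM in the central axon controls, at 431, 158 and 246 CPM in the peripheral axon controls, at 857, 952, 68.1 and 762.1 CPM in the batch 1 soma controls (replicates 1, 3, a and b) and at 968, 307, 453 and 247 CPM in the batch 2 soma controls. The central axon controls lay below each central axon Cre library, whereas the peripheral axon controls overlapped their Cre libraries.

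Snap25, the neuronal plasma membrane SNARE, followed the same order over the Cre groups. Its levels were 357, 434, 656 and 570.2 CPM in central axons, 262, 350.2, 301 and 467 CPM in batch 1 somas, 358, 238, 383 and 389 CPM in batch 2 somas and 76.8, 148, 119 and 104 CPM in peripheral axons. Among controls it stood at 494, 428, 741 and 483 CPM in central axons, 98.6, 24.5 and 83.1 CPM in peripheral axons, 385, 3.45, 173 and 509.6 CPM in batch 1 somas and 359.9, 344, 307 and 709.7 CPM in batch 2 somas. The control levels overlapped the Cre levels in each compartment, and the batch 1 soma controls spread most.

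Syt1, a fast calcium sensor of release, differed less between the Cre groups. It stood at 248, 162, 107 and 161 CPM in central axons, 40.1, 190.5, 145 and 175 CPM in peripheral axons, 189, 236, 158 and 481 CPM in batch 1 somas and 178, 200.2, 187 and 248 CPM in batch 2 somas. The Cre groups overlapped one another. Its controls stood at 219, 209, 178 and 91.6 CPM in central axons, 116, 28.4 and 0 CPM in peripheral axons, 65.3, 2.80, 67.1 and 243 CPM in batch 1 somas and 189, 329.6, 492 and 301 CPM in batch 2 somas.

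**Figure D1:**
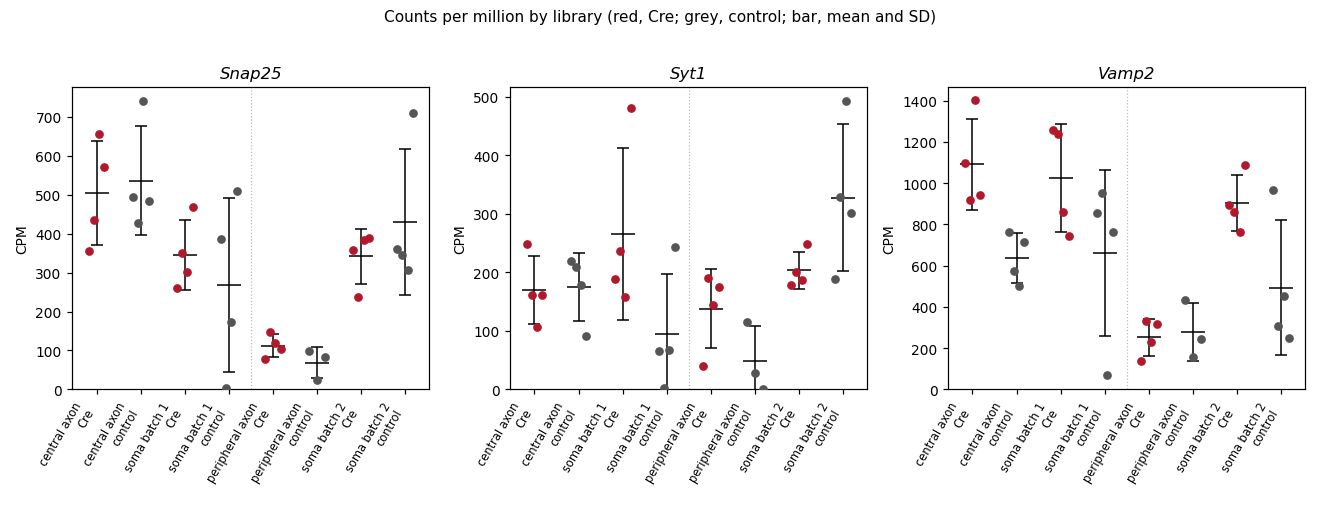
CPM of Snap25, Syt1 and Vamp2 (vertical axes, linear) in each of the 31 libraries by group (horizontal axes), with the group mean and SD; red points are Cre libraries, grey points controls, and the dotted line divides batch 1 from batch 2. Snap25 and Vamp2 are lowest in the peripheral axon groups, and the control libraries of central axons and somas carry all 3 genes.

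Compared per kilobase of exon over the 16 Cre libraries, Rab3a was the most abundant member at 332 ± 164 CPM per kb (mean ± SD, n = 16), followed by Cplx1 at 289 ± 138 and Vamp2 at 215 ± 101. The order of Rab3a and Cplx1 differed between groups: Cplx1 stood at 405 ± 71.2 and Rab3a at 394 ± 60.8 CPM per kb in batch 2 Cre somas, and at 88.7 ± 50.3 and 77.6 ± 29.95 in peripheral axon Cre libraries, within their spread. Rab3a encodes the main GTPase of synaptic vesicles, and Cplx1 a complexin of fast release. The leading synaptotagmins were Syt11 at 121 ± 57.5 and Syt4 at 72.7 ± 41.0 CPM per kb, neither of them a fast calcium sensor. The leading members of the other families were Snap47 at 115 ± 74.9 and Snap25 at 48.0 ± 24.3, Stx1a at 89.7 ± 50.7 and Stx7 at 56.4 ± 23.8, Syn1 at 87.6 ± 63.2 and Syn2 at 22.96 ± 10.8, and Sv2a at 21.4 ± 14.8 and Sv2c at 9.20 ± 4.62 CPM per kb. The runners-up in the remaining families were Rab3d at 60.1 ± 28.7, Cplx2 at 31.7 ± 11.0 and Vamp8 at 19.4 ± 21.7 CPM per kb. Vamp8 stood at 53.4 ± 16.4 CPM per kb in peripheral axons and at 5.67 ± 2.45 in batch 2 Cre somas, where Vamp7 stood at 24.1 ± 7.12.

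Close relatives differed widely in level. In the batch 2 Cre somas, Vamp2 stood at 237 ± 35.8 CPM per kb (SD, n = 4) and Vamp1 at 11.3 ± 2.06, Syt1 at 24.4 ± 3.75 and Syt2 at 3.502 ± 0.876, and Rab3a at 394 ± 60.8 and Rab3c at 21.6 ± 1.38. Snap25 and Snap23, its counterpart in non-neuronal exocytosis, stood at 50.4 ± 10.4 and 0.61 ± 0.46 CPM per kb there. In the peripheral axon Cre libraries the same pair stood at 16.5 ± 4.37 and 5.95 ± 4.62 CPM per kb. Sv2a, Sv2c and Sv2b, the vesicle glycoproteins, stood in that order in somas of batch 2, at 16.9 ± 5.88, 10.8 ± 1.92 and 3.86 ± 0.878 CPM per kb.

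A few members were at or near 0. Cplx4 had 0 counts in all 31 libraries, Syt8 had 1 count in all, and Cplx3 had 26 counts, all of them in central axon control replicate 1. These complexins and Syt8 are known from retina and from epithelia. In contrast, 15 members had counts in every library. The summed CPM of the release list was 6715 ± 870.5 (SD, n = 4) in central axon Cre libraries, 6198 ± 717 in batch 1 and 6197 ± 633 in batch 2 Cre somas, and 2163 ± 794 in peripheral axon Cre libraries. Release genes made up 54.8 ± 5.83% (SD, n = 4) of the members' CPM in the peripheral axon Cre libraries and 69.9 ± 1.38% in the Cre somas of batch 2. Among controls the release sum was 5751 ± 682 in central axons, 1783 ± 1212 (n = 3) in peripheral axons, 4644 ± 1067 in batch 1 and 5829.8 ± 554 CPM in batch 2 somas.

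The largest number of members differed between peripheral axons and somas of the Cre mice, a comparison that asks which of these mRNAs sciatic nerve axons hold on ribosomes relative to their cell bodies. Of the 59 members 52 could be tested, and 30 passed an adjusted p under 0.05 in edgeR's quasi-likelihood test. Of these 24 were lower (46.2%, beside 12.5% of all genes tested) and 6 were higher (11.5%, beside 18.7% of all genes tested) in peripheral axons. Together 57.7% of tested members passed, beside 31.2% of all genes, and 34 of the 52 had groups that did not overlap, beside 38.7% of all genes. The release list accounted for 17 of the lower and 1 of the higher members among 26 tested, with a median log2 fold change of -1.76. The trafficking list had 7 lower and 5 higher among 26 tested, with a median of -0.51. The median over all genes was -0.03. In such bulk pulldowns, fewer cells of a type and less RNA per cell cannot be told apart.

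RNA of the release-site SNARE genes was lower in peripheral axon Cre libraries. Vamp2, with the values by library given above, fell by 2.01 (SE 0.34, adjusted p = 0.00139) on the log2 scale, and Snap25 fell by 1.79 (SE 0.32, adjusted p = 0.00162). Stx1a, the plasma membrane syntaxin, stood at 29.7, 95.2, 75.4 and 58.1 CPM in the peripheral axon Cre libraries and at 371, 360.0, 268 and 397 CPM in the batch 2 Cre somas. It fell by 2.58 (SE 0.38, adjusted p = 0.000525), and its groups did not overlap. Vamp1, a close relative of Vamp2, had -1.94 (SE 0.74, adjusted p = 0.0657) and did not pass. Syt1 had a log2 fold change of -0.73 (SE 0.42, adjusted p = 0.21) and did not pass either.

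Rab3a, Cplx1 and the synapsins Syn1 and Syn2 fell as well. Rab3a stood at 138, 248, 99.3 and 206 CPM in peripheral axons and at 832, 709.8, 944 and 1020.2 CPM in somas, with no overlap, and fell by 2.55 (SE 0.35, adjusted p = 0.000308). Cplx1 stood at 73.0, 339.9, 190.1 and 174 CPM against 971, 844, 688 and 1043 CPM and fell by 2.34 (SE 0.44, adjusted p = 0.0025). Syn2, a synapsin that tethers vesicles in clusters, stood at 46.7, 77.1, 33.4 and 48.9 CPM in axons and at 224, 225, 208 and 225 CPM in somas. The somas were nearly uniform for Syn2, the groups did not overlap, and it fell by 2.29 (SE 0.29, adjusted p = 0.0002). Syn1 fell by 2.27 (SE 0.40, adjusted p = 0.00161).

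Values by library followed the same order for other release genes. Syn1 stood at 41.1, 140.4, 61.5 and 58.8 CPM in axons and at 423, 264, 281 and 344 CPM in somas. Sv2a stood at 10.5, 47.4, 11.7 and 37.1 CPM against 58.8, 106, 51.5 and 97.1 CPM. Rab3c, a vesicle GTPase of neurons and endocrine cells, stood at 41.8, 178, 38.1 and 69.2 CPM against 245, 255, 284 and 255 CPM. Further release genes that passed were Rab3c (-1.85), Rab3b (-1.49), Sv2a (-1.72), Sv2c (-1.71) and Snap91 (-1.37), the last a clathrin adaptor of vesicle recycling. Among synaptotagmins Syt3, Syt6, Syt5, Syt9 and Syt2 fell, with log2 fold changes of -3.69, -2.28, -2.20, -1.49 and -1.41. Syt3, a high-affinity calcium sensor, stood at 0, 0.797, 0.244 and 0.347 CPM in peripheral axons and at 5.12, 6.43, 2.09 and 5.15 CPM in somas. Both groups were low for Syt3, although they did not overlap. Syt4 (-0.86, adjusted p = 0.111), Syt7 (-0.91, adjusted p = 0.217) and Syt11 (-0.89, adjusted p = 0.161) did not pass.

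Members of the trafficking list that fell were Snap47 (-2.56), Stx7 (-1.79), Rab3d (-1.73), Vamp7 (-1.18), Vamp4 (-1.03), Stx12 (-0.79) and Stx18 (-0.79). Stx7, a late endosome syntaxin, stood at 54.0, 161, 128 and 104 CPM in axons and at 371, 262, 393 and 350.1 CPM in somas. Rab3d stood at 68.3, 216, 63.0 and 119 CPM against 339.9, 436, 265 and 332 CPM. Most of the 7 act at endosomes, lysosomes or the endoplasmic reticulum. Snap47, a SNAP25 relative that lacks its membrane anchor, stood at 39.9, 90.2, 73.2 and 61.9 CPM in axons and at 426, 217, 345 and 406 CPM in somas, with no overlap. Exons of Snap47 overlap Jmjd4 on the opposite strand over 11.6% of its exon length, and those of Stx18 overlap Nsg1 and Gm42858 over 32.3%.

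The members that rose in peripheral axons were Vamp5, Snap23, Vamp8, Vamp3, Stx17 and Syn3. Vamp3, the vesicle SNARE of recycling endosomes, stood at 165, 85.5, 55.2 and 118 CPM in axons and at 17.6, 17.5, 16.8 and 15.7 CPM in somas and rose by 2.40 (SE 0.31, adjusted p = 0.000212). Vamp8, of endosomes and secretory granules in many cell types, stood at 179, 99.5, 118 and 97.3 CPM against 8.74, 21.1, 13.2 and 9.38 CPM and rose by 3.01 (SE 0.36, adjusted p = 0.000144). Each peripheral axon Cre library was above each soma library for both genes.

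Vamp5, a VAMP described mainly in muscle, stood at 42.1, 29.4, 56.6 and 24.8 CPM in axons and at 5.87, 4.75, 2.14 and 1.43 CPM in somas, a rise of 3.28 (SE 0.54, adjusted p = 0.00104). Snap23 stood at 4.62, 12.6, 43.2 and 41.8 CPM in axons and at 5.56, 1.35, 1.63 and 1.95 CPM in somas. Its groups overlapped in 1 axon library, and it rose by 3.16 (SE 0.78, adjusted p = 0.00995). Stx17, the syntaxin of autophagosomes, stood at 44.0, 13.8, 25.4 and 25.3 CPM against 7.49, 5.53, 4.43 and 4.35 CPM and rose by 2.10 (SE 0.44, adjusted p = 0.00456).

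**Figure D2:**
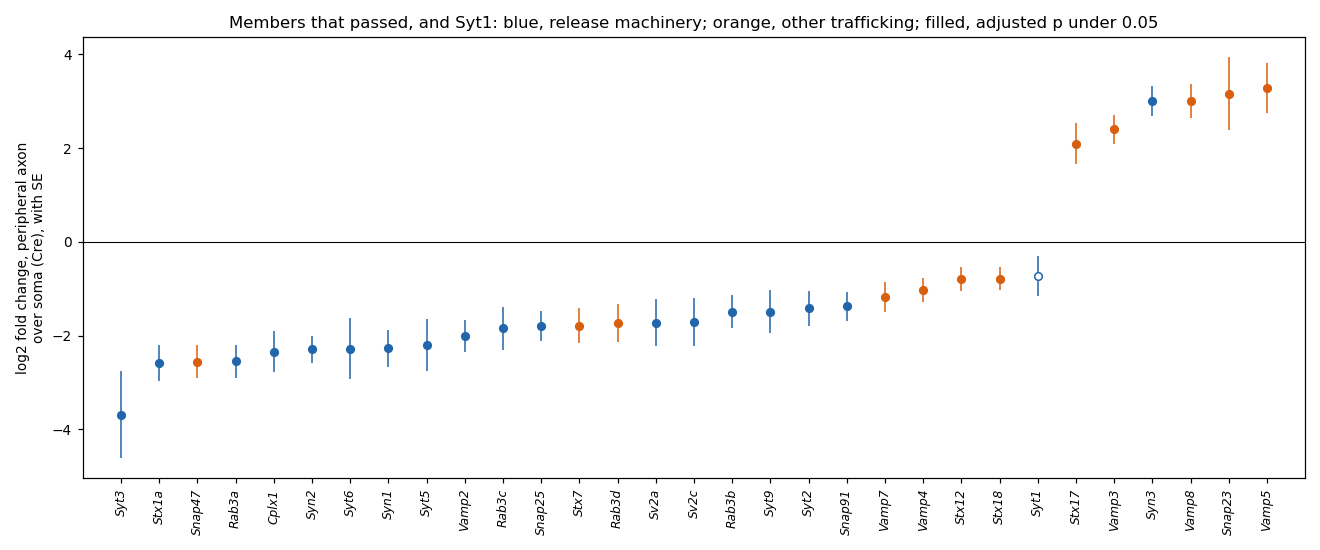
Log2 fold change of peripheral axon over soma among Cre libraries (vertical axis, bars are SE) for the 30 members that passed and for Syt1 (horizontal axis), ordered by size; blue, release list; orange, trafficking list; filled, adjusted p under 0.05. The 24 filled points below 0 are mostly blue, and 5 of the 6 filled points above 0 are orange.

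Set against the batch 2 Cre somas, the sciatic nerve controls showed the same direction. Their mean CPM lay below the Cre soma mean for 23 of the 24 members that fell. Vamp4 was the exception, at 95.4 ± 45.9 CPM (SD, n = 3). For the 6 that rose it lay above the Cre soma mean. Set against the batch 2 soma controls, mean CPM reversed for Vamp5 (25.1 against 37.1), Stx12 (133 against 97.8) and Vamp4 (95.4 against 53.8). The other members called kept their direction. The ranges of peripheral axon Cre and control libraries overlapped for 24 of 24 and for 5 of 6 of these members. Vamp8 was the exception, with 50.6, 68.0 and 60.1 CPM in the controls. Of all genes tested, 6.36% had peripheral axon Cre and control groups that did not overlap, on the TMM-normalised scale. Vamp3 stood at 77.9, 87.7 and 68.1 CPM, Vamp5 at 10.3, 35.6 and 29.5 CPM and Snap23 at 18.3, 54.6 and 0 CPM in the controls. Rab3a stood at 473, 184 and 32.6 CPM, Cplx1 at 393, 96.2 and 0 CPM and Syn2 at 98.1, 17.9 and 0.982 CPM there, each with a spread wider than that of the Cre libraries. The difference between axon and soma in Cre over control libraries passed for 0 of 52 members in edgeR, beside 0.00636% of all genes. At an unadjusted p under 0.05 in edgeR stood 6 members, beside 1531 of 15717 genes. DESeq2 called 2 members, beside 352 of 15717 genes. The smallest p values belonged to Vamp5, with 3.71 (SE 1.11, adjusted p = 0.314), Vamp4, with -1.87 (SE 0.57, adjusted p = 0.314), and Vamp3, with 2.07 (SE 0.72, adjusted p = 0.351). Syn3 (1.77, adjusted p = 0.388) and Stx12 (-1.24, adjusted p = 0.507) followed, with Syt3 (adjusted p = 0.4933), which had 0 counts in the 3 nerve controls. For Snap25, Syt1 and Vamp2 this difference was 0.83, 1.94 and -1.20, with adjusted p of 0.718, 0.671 and 0.58.

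**Figure D3:**
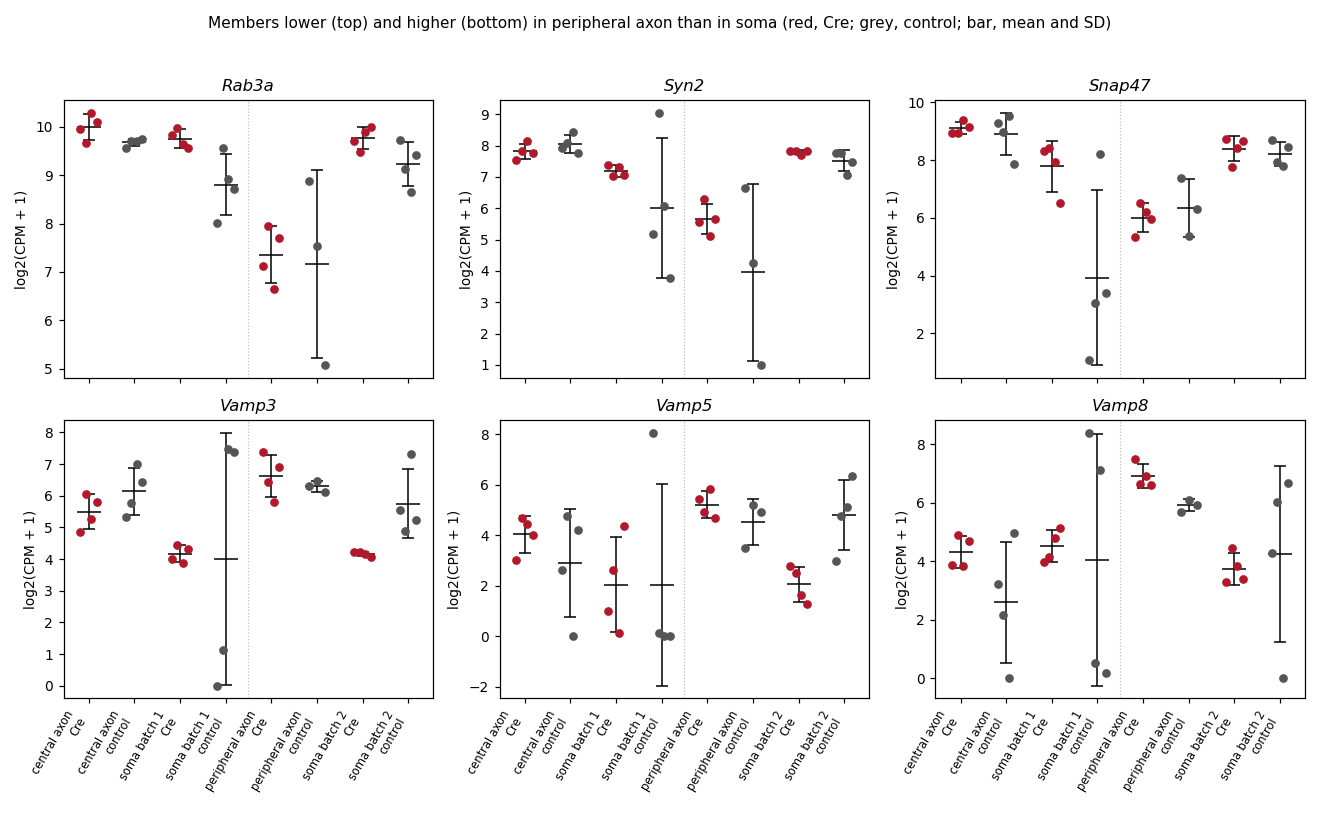
Levels as log2(CPM + 1) (vertical axes) of 3 members that fell (Rab3a, Syn2, Snap47, top) and 3 that rose (Vamp3, Vamp5, Vamp8, bottom) in peripheral axons, in each library by group (horizontal axes), with mean and SD; red, Cre; grey, control. The 3 control points of peripheral axons spread wider than the 4 Cre points for Rab3a and Syn2, and all lie below the Cre points for Vamp8.

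Cell type markers moved with these groups. Of 10 nociceptor markers 7 fell and 0 rose, with a median log2 fold change of -1.73, close to the -1.76 of the release list. Their summed level ranged from 1041 to 4382 CPM in peripheral axon Cre libraries and from 7424 to 9219.7 CPM in somas. Markers of large-diameter sensory neurons did not fall: 2 of 6 rose and 0 fell (median 0.02), with 293 to 385 CPM against 259 to 368 CPM. Of 7 oligodendrocyte markers 3 could be tested and 3 rose (median 5.25), while Mog, Olig1, Olig2 and Opalin were at 0 in the nerve. Of 10 Schwann cell and satellite glia markers 6 rose (median 3.55), with summed levels of 10700.1 to 26339 CPM against 852 to 1046 CPM, and none of them was at 0. Of 6 fibroblast markers 6 rose (median 4.20), with 3816 to 6686 CPM against 173 to 364 CPM, and of 5 tested muscle markers 5 rose (median 5.05), with 682 to 2608 CPM against 16.02 to 84.1 CPM. Endothelium markers rose in 4 of 4 (median 3.38), with 50.8 to 141 CPM against 4.29 to 11.4 CPM. Macrophage and microglia markers rose in 3 of 6 (median 2.75), with 71.3 to 149 CPM against 20.0 to 37.6 CPM. The part of these cells in the levels of Vamp3, Vamp5, Vamp8 and Snap23 was not tested.

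A list of 54 non-members held other genes of the exocytosis pathway. Of 46 tested, 15 fell (beside 12.5% of all genes) and 5 rose (beside 18.7%). Those that fell included Syngr3 (-2.50) and Syp (-2.04), both vesicle membrane proteins, Bsn (-1.96) and Rims1 (-1.69) of the active zone, and Slc17a6 (-1.60), a vesicular glutamate transporter. Those that rose were Stxbp6 (4.92), Stxbp3 (3.19), Rab3il1 (2.86), Syngr2 (2.34) and Unc13c (1.61). Syngr2 is a widely expressed relative of the neuronal synaptogyrins. With each of the 8 libraries left out in turn, 24 to 37 members passed, beside 3220 to 6055 of all genes. Of the 30 members called, 8 lost their call in at least 1 of these fits: Syt9 in 6 (adjusted p up to 0.0706), Stx12 and Stx18 in 4, Sv2c in 3, Sv2a and Syt6 in 2, and Syt2 and Vamp7 in 1. With the 4 groups of the batch in a single fit, which shares the wider spread of the controls, 11 of 52 passed (3 higher, 8 lower). Of all genes 1404 of 15717 passed in that fit.

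Members that moved together in peripheral axons were compared in their promoter sequence. RefSeq promoter windows (assembly GRCm38.p6) that start within 30 bases of the GENCODE gene start were found for 29 members, 24 of them tested. The 250 bases before the start are printed for the 2 members of each direction with the smallest p among those with a window, 5′ to 3′ on the gene's own strand. Capitals mark matches, on either strand, of a GC box (GGGCGG), of the core of a cAMP response element (TGACG) or of a TATA box (TATAAA); the motifs share no letters of one another's matches, except that the GC box matches of Vamp5 share a base. Vamp5 (chr6:72380469-72380718, minus strand) and Stx17 (chr4:48124669-48124918, plus strand) rose. Syn2 (chr6:115134652-115134901, plus strand) and Rab3a (chr8:70754453-70754702, plus strand) fell.
Vamp5: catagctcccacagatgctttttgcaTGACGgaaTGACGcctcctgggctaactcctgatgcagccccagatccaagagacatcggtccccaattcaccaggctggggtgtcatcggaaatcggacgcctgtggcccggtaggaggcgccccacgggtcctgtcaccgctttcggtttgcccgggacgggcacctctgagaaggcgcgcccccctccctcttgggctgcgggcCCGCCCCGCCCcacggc
Stx17: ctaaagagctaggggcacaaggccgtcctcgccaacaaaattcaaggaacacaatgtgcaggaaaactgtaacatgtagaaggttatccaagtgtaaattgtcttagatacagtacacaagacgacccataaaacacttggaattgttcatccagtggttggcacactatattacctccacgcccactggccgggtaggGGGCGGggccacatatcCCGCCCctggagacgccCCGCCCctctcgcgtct
Syn2: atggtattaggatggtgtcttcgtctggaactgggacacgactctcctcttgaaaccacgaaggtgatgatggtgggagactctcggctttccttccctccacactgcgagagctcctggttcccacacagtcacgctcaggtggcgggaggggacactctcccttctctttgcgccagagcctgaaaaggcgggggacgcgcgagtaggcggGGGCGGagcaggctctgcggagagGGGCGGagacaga
Rab3a: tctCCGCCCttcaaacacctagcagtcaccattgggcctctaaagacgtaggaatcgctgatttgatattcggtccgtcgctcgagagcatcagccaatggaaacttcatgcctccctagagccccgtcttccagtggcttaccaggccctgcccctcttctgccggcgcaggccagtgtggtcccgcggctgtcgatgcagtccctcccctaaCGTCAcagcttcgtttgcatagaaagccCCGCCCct
A GC box lay in 2 of 3 windows of members that rose, in 8 of 11 of members that fell and in 7 of 10 of members that did not pass, beside 32.7% of all 32851 windows. The cAMP element core lay in 1, 5 and 1 of these windows, beside 17.8% of all windows. A TATA box lay in 0, 1 and 2 of them, beside 12.4%. The windows had a median of 17, 15 and 11.5 CpG dinucleotides, beside 6 over all windows. These matches describe the letters of the windows only. The 32851 windows, unlike those of the members, were limited neither to GENCODE gene starts nor to tested genes.

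Syn3, a synapsin, was the single release gene that rose in peripheral axons, and its counts tracked those of another gene. The coding gene Timp3, which encodes a secreted metalloproteinase inhibitor, lies on the plus strand of chromosome 10 (chr10:86300372-86349506, GRCm38) inside the span of Syn3 on the minus strand (chr10:86055125-86498896), and 14.1% of the exon length of Syn3 overlaps it. In the 15 libraries of batch 2 the ratio of Syn3 to Timp3 counts ran from 0.740 to 1.06, with a median of 0.945 in the 4 peripheral axon Cre libraries. In batch 1 the ratio ran from 0.418 to 0.887 in the central axon Cre libraries and from 0.00546 to 0.381 in the central axon controls, was 0 in the 4 soma controls and ran from 0.147 to 2.20 in the Cre somas. The log2 fold change of peripheral axon over soma was 3.01 (SE 0.32, adjusted p = 7.57e-05) for Syn3 and 2.97 for Timp3. Syn3 stood at 276, 105, 217 and 252 CPM in Cre-positive nerve, 167, 218 and 405 CPM in nerve without Cre and 26.7, 28.1, 18.3 and 18.4 CPM in the batch 2 Cre somas. How the counting used strand is not given in the sources used here, so reads of Syn3 and Timp3 cannot be told apart in batch 2.

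**Figure D4:**
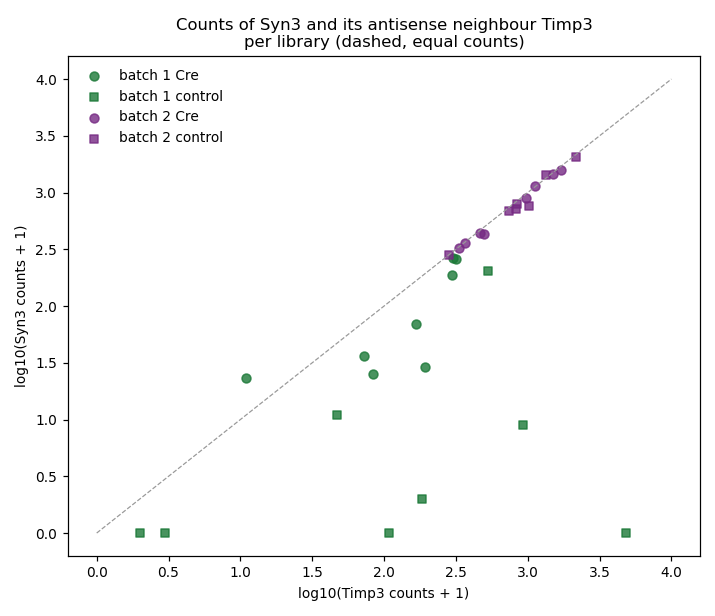
Counts of Syn3 (vertical axis) against counts of Timp3 (horizontal axis), both as log10(counts + 1), in each library; green, batch 1; purple, batch 2; circles, Cre; squares, controls. The 15 batch 2 libraries lie along the dashed line of equal counts, at ratios of 0.740 to 1.06, while the 16 batch 1 libraries run from a ratio of 0 to 2.20, with 2 central axon Cre libraries inside the batch 2 range.

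Central axons differed from somas in fewer members. Of 53 tested, 7 were higher (13.2%, beside 8.63% of all genes) and 3 lower (5.66%, beside 5.11%) in the central axon Cre libraries than in the batch 1 Cre somas. Together 18.9% passed, beside 13.7% of all genes, and 21 of the 53 had groups that did not overlap, beside 22.1% of all genes. The release list had 3 higher and 2 lower of 27 tested and a median log2 fold change of -0.19. The trafficking list had 4 higher and 1 lower of 26 and a median of -0.25, beside 0.05 over all genes. Snap25 and Vamp2 had log2 fold changes of 0.10 (SE 0.30, adjusted p = 0.855) and -0.35 (SE 0.34, adjusted p = 0.538), and Syt1 of -1.03 (SE 0.39, adjusted p = 0.0966); none of these passed.

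Synaptotagmins led the members that rose. Syt3 stood at 39.6, 60.6, 73.0 and 127 CPM in central axons and at 5.28, 7.30, 0.431 and 2.25 CPM in somas and rose by 3.83 (SE 0.65, adjusted p = 0.00311). Syt13, which lacks calcium binding, stood at 38.3, 69.6, 31.1 and 145 CPM against 9.22, 7.499, 1.38 and 5.82 CPM and rose by 3.10 (SE 0.59, adjusted p = 0.00562). Syt17 stood at 22.5, 23.7, 26.8 and 51.8 CPM against 1.55, 2.63, 0.949 and 8.87 CPM and rose by 2.76 (SE 0.65, adjusted p = 0.0151). Each central axon Cre library was above each soma library for these genes.

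The other members that rose were Stx3 (1.82), a syntaxin of apical membranes and of ribbon synapses, Stx5a (1.59), the Golgi syntaxin, Rab3b (1.28) and Syn3 (2.17). Those that fell were Syt4 (-1.45), Stx4a (-1.45) and Syt7 (-1.42), the last a sensor of slow release and of lysosome exocytosis. Rab3b stood at 93.5, 157, 188 and 278 CPM in central axons and at 60.6, 54.4, 39.9 and 57.3 CPM in somas. Stx3 stood at 31.4, 42.1, 34.2 and 105 CPM against 11.3, 11.4, 6.21 and 14.8 CPM. Among the members that fell, Stx4a, a plasma membrane syntaxin of many cell types, stood at 56.6, 49.2, 60.8 and 51.1 CPM against 84.8, 87.5, 144 and 120.0 CPM. Syt4 stood at 277, 209.8, 132 and 165 CPM in central axons and at 283, 313, 252 and 805 CPM in somas. Its soma replicate 4 lay far above the other somas, and the groups overlapped in CPM but not on the TMM-normalised scale. Syt4 did not pass with scaling by library size, nor in 4 of 8 fits that left out a library, soma replicate 4 among them (adjusted p up to 0.103, log2 fold change down to -0.98). Syt11, the most abundant synaptotagmin, had -1.22 (SE 0.39, adjusted p = 0.0537) and did not pass.

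The controls of dorsal root and spinal cord held the same genes at overlapping levels. Syt3 stood at 185, 75.6, 102 and 94.1 CPM in the central axon controls, each above the mean of the Cre libraries, 74.9 ± 37.1 (SD, n = 4) CPM. Syt13 stood at 153, 51.6, 226 and 67.5 CPM, Syt17 at 78.5, 8.96, 0 and 32.9 CPM and Rab3b at 209, 119, 157 and 166 CPM there. For the 10 members called, the control mean lay on the same side of the soma Cre mean in 10, and the ranges of Cre and control libraries overlapped in 10. Set against the batch 1 soma controls, Syt4 reversed, at a mean of 342 CPM in axon controls and 247 CPM in soma controls. The other members called kept their direction. Of all genes tested, 8.14% had central axon Cre and control groups that did not overlap, on the TMM-normalised scale. Of 10 spinal neuron markers 9 rose and 1 fell (median 8.29), with summed levels of 369 to 605 CPM in central axon Cre libraries, 473 to 1060.4 CPM in their controls and 183 to 269.8 CPM in somas, where Chat, Gad2, Slc32a1 and Slc6a5 were at 0. Astrocyte markers rose in 5 of 6 (median 5.72), with 296 to 1347 CPM, 1329 to 2347 CPM and 1.98 to 32.0 CPM in the same groups. Nociceptor markers fell in 5 of 10 (median -1.68). The part of spinal cells in the levels of Syt3, Syt13 and Syt17 was not tested.

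Among the 54 other exocytosis genes, 5 of 50 tested rose (beside 8.63% of all genes) and 1 fell (beside 5.11%). Slc32a1 (9.48) and Slc18a3 (7.28), the vesicular transporters of inhibitory and of cholinergic neurons, rose together with Stxbp6 (4.404), Doc2a (2.71) and Cadps2 (2.54), while Napg fell (-0.95). Of the 10 members called, Syn3 lost its call in 5 of 8 fits that left out a library, Rab3b, Stx5a, Syt4 and Syt7 in 4, and Stx3 and Syt17 in 1. The count was sensitive to single libraries: 3 passed without central axon Cre replicate 4, 5 without replicate 3 and 15 without replicate 1. Of all genes 822 of 14935, 1049 of 14918 and 2717 of 14985 passed in these fits, in the same order. With the 4 groups of the batch in a single fit 0 passed, beside 15 of 15355 genes. With scaling by library size alone 12 were higher and 1 lower, beside 2146 higher and 293 lower of 14480 genes.

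The contrast between central and peripheral axons, each taken relative to the somas of its own batch, asks whether the axon branches differ in these mRNAs. Batch and axon type cannot be told apart by any direct comparison. Of 54 tested members 13 passed, 12 higher in central axons (22.2%, beside 7.20% of all genes) and 1 lower (1.85%, beside 5.88%). In all 24.1% passed, beside 13.1% of all genes. The release list had 9 higher and 0 lower of 27 tested and a median of 1.75, beside 0.26 over all genes. The trafficking list had 3 higher and 1 lower of 27 and a median of 0.47.

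Core release genes were among those that passed. Snap25 differed by 2.06 (SE 0.42, adjusted p = 0.00397) on the log2 scale, Vamp2 by 1.82 (SE 0.47, adjusted p = 0.0151) and Stx1a by 2.51 (SE 0.62, adjusted p = 0.013). Stx1a stood at 322, 233, 411 and 203 CPM in central axons and at 374, 337, 219 and 76.1 CPM in batch 1 somas. For these 3 genes the central axon and its somas overlapped, while each peripheral axon library was below its somas. Rab3a (2.52), Cplx1 (2.07), Syn1 (2.91), Syn2 (2.63) and Rab3b (2.94) also passed in this direction. Syt1, at -0.13 (SE 0.60, adjusted p = 0.922), did not. Without Cre the release list was also higher in central than in peripheral axons, at summed levels of 5751 ± 682 against 1783 ± 1212 CPM (SD, n = 4 and 3). The soma controls summed to 4644 ± 1067 CPM in batch 1 and 5829.8 ± 554 CPM in batch 2. Snap25 stood at 537 ± 139 against 68.7 ± 39.1 CPM and Rab3a at 820 ± 43.2 against 230 ± 224 CPM in the same axon controls. The part of this background in the contrast was not tested.

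Syt3 showed the largest difference of the 13, 7.56 (SE 1.06, adjusted p = 0.0003), being higher in central axons and lower in peripheral axons than in somas. Its central axon controls were as high as its Cre libraries, as given above, and the nerve controls had 0 counts. Syt16 (2.35), Syt17 (4.54) and Snap47 (3.43) of the trafficking list were also higher in central axons. Syt17 lost its call in 8 of the 16 fits that left out a library, with adjusted p up to 0.0714, and 3 of its 4 peripheral axon Cre libraries had 0 counts. Vamp8 alone passed in the other direction, at -3.49 (SE 0.54, adjusted p = 0.000722). It stood at 13.7, 28.4, 13.3 and 24.7 CPM in the central axon Cre libraries, near the 14.8, 16.8, 26.7 and 34.01 CPM of their somas.

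Marker lists moved in this contrast too. Nociceptor markers had 0 of 10 passing and a median of -0.01. Spinal neuron markers had 3 of 10 higher (median 7.72), astrocyte markers 4 of 6 higher (median 5.47) and Schwann cell and satellite glia markers 7 of 10 lower and 1 higher (median -2.83). Their part in the members' differences was not tested. With each library left out in turn, 12 to 18 members passed, beside 1394 to 2856 of all genes. Of the 54 other exocytosis genes, 9 of 51 tested were higher in central axons (beside 7.20% of all genes) and 0 lower (beside 5.88%). Among those higher were Amph (2.63) and Dnm1 (2.51), the last a dynamin of vesicle recycling.

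**Figure D5:**
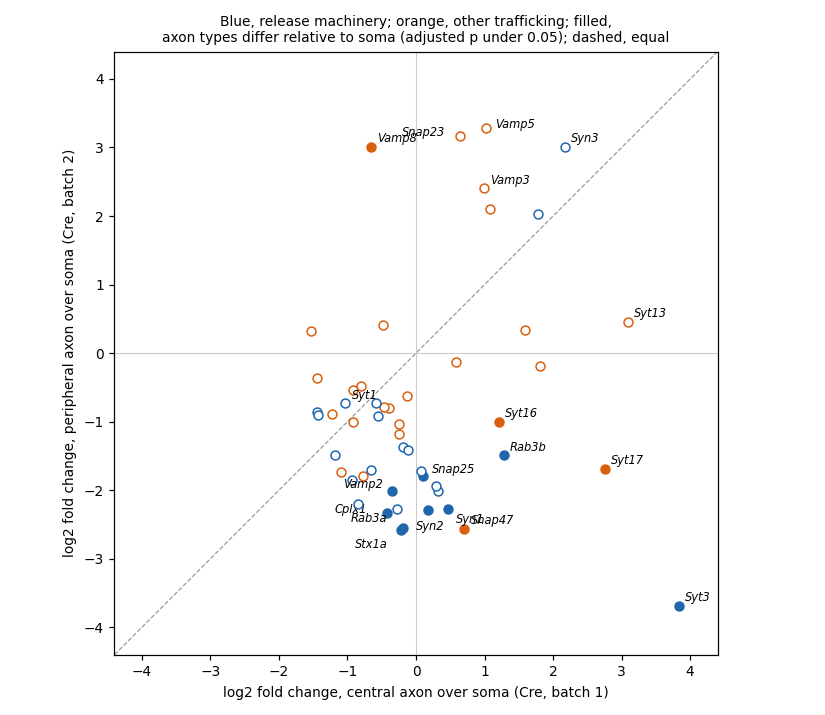
Log2 fold change of central axon over soma (horizontal axis) and of peripheral axon over soma (vertical axis), Cre libraries, for the 52 members tested in both; filled points are the members whose difference between the axon types passed an adjusted p under 0.05. Filled release genes (blue) such as Snap25 and Rab3a lie near 0 on the horizontal axis and near -2 on the vertical axis, Syt3 lies at the lower right, and Vamp8 at the upper left.

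Cre libraries were compared with controls in each compartment to ask which members the tagged ribosomes bring down above background. In central axons 0 of 53 members passed in edgeR, beside 0.0141% of all genes. At an unadjusted p under 0.05 in edgeR stood 5 members, beside 684 of 14189 genes. DESeq2 called 1 member, beside 217 of 14189 genes. The groups did not overlap for 6 of the 53 members (11.3%), beside 8.14% of all genes. Vamp2 had a log2 fold change of 0.82 (SE 0.29, adjusted p = 0.672), Cplx1 of 0.70 (SE 0.29, adjusted p = 0.946) and Snap91 of -0.69 (SE 0.30, adjusted p = 0.995). These 3, with Vamp4, Vamp7 and Stx11, were the 6 without overlap on the TMM-normalised scale. In CPM Vamp4 overlapped, at 71.4 in Cre replicate 1 and 73.2 in control replicate 2. Stx11, a syntaxin best known from immune cells, had 184 counts over the 4 Cre libraries and 2 over the 4 controls, a ratio of 80.9 per total count (exact 95% interval 22.1 to 673, counting error only; adjusted p = 0.243). Rab3d (1.801, adjusted p = 0.706) and Stx1a (1.15, adjusted p = 0.9997) were also among the 6 smallest p values. Snap25 had -0.06 (SE 0.30, adjusted p = 0.9997) and Syt1 0.04 (SE 0.42, adjusted p = 0.9997) in central axons. The nociceptor markers had a median of 5.13 in the same comparison, with 9 of 9 positive, beside 0.13 for the release list and 0.11 over all genes.

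In peripheral axons 0 of 50 members passed, beside 0 of all genes. At an unadjusted p under 0.05 in edgeR stood 2 members, beside 514 of 13970 genes. DESeq2 called 0 members, beside 27 of 13970 genes. Vamp8 had the smallest p, at 1.11 (SE 0.41, adjusted p = 0.9999), and was the 1 member whose groups did not overlap (2% of those tested, beside 6.36% of all genes). Vamp4 (-1.07), Snap25 (0.86), Syt11 (0.98), Syt4 (1.63) and Syt1 (1.62) followed, each with an adjusted p of 0.9999. Vamp2 was at -0.02. The release list had a median of 0.65 and the nociceptor markers of 0.73, beside 0.07 over all genes. The 3 nerve controls differed widely: replicate 4 had 0 counts of Syt1, Syt4 and Cplx1, while replicate 1 had 393 CPM of Cplx1.

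In the batch 1 somas 2 of 48 members passed (4.17%, beside 4.42% of all genes), both higher in Cre (4.37% of all genes were called higher and 0.0514% lower). At an unadjusted p under 0.05 in edgeR stood 7 members, beside 1752 of 11667 genes. Syn3 stood at 3.63, 2.73, 1.90 and 3.18 CPM in the Cre libraries and at 0 counts in the 4 controls, so that it was at least 8.05-fold higher than the mean floor of 3 counts per library (0.355 CPM); its adjusted p was 0.0099. Timp3, at the same locus, had from 1 to 4812 counts in these controls. Syt14, a synaptotagmin that does not bind calcium, stood at 4.56, 7.89, 6.04 and 7.15 CPM and had 1 count in the controls, a ratio of 216 (exact 95% interval 38.5 to 8574; adjusted p = 0.0162). These controls held fewer genes: 4934 to 7889 genes had at least 10 counts, beside 12502 to 14015 in the Cre somas. From 9 to 22 members had 0 counts in a control library, beside 4 to 7 in a Cre library. A count of 0 there cannot tell a low level from a gene that was not sampled. Groups did not overlap for 7 of the 48 members (14.6%), beside 15.8% of all genes. The next smallest p values were those of Syt6, Stx8, Stx4a and Stx16, with adjusted p of 0.126, 0.28, 0.297 and 0.318. Snap25 at 0.05 (SE 1.00, adjusted p = 0.985), Syt1 at 0.98 (SE 0.98, adjusted p = 0.615) and Vamp2 at -2.84 (SE 2.03, adjusted p = 0.485) had wide errors. The sign for Vamp2 goes against its unscaled mean CPM, 1024 ± 264 in Cre somas and 659.8 ± 402 in controls (SD, n = 4). It was 0.61 with scaling by library size and reached 0.77 when control replicate 3 was left out. The count depended on single controls. Without control replicate 3, 9 of 51 members passed, all higher, beside 3094 of 12741 genes. Without replicate 1, a or b, 0 members and 0 genes passed.

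In the batch 2 somas 0 of 51 members passed, beside 0 of all genes. At an unadjusted p under 0.05 in edgeR stood 14 members, beside 2503 of 15280 genes. DESeq2 called 4 members lower, beside 951 of 15280 genes. Groups did not overlap for 10 of the 51 (19.6%), beside 13.3% of all genes. The smallest p values belonged to Syn3 at -2.08 (SE 0.47, adjusted p = 0.0705), Vamp5 at -3.14 (SE 0.79, adjusted p = 0.0877), Sv2b at -1.31 (SE 0.38, adjusted p = 0.123) and Vamp3 at -1.69 (SE 0.53, adjusted p = 0.147), all lower in the Cre libraries. Syt13 (-1.98, adjusted p = 0.197) and Syt5 (1.78, adjusted p = 0.199) came next. Vamp3 stood at 17.6, 17.5, 16.8 and 15.7 CPM in Cre somas and at 45.5, 28.9, 159.9 and 36.5 CPM in controls, and Vamp5 at 6.91, 26.6, 34.2 and 80.6 CPM in controls. Schwann cell and satellite glia markers summed to 1739 to 5001 CPM in these controls and to 852 to 1046 CPM in the Cre somas, and their part was not tested. Snap25 at -0.07 (SE 0.33, adjusted p = 0.939), Syt1 at -0.40 (SE 0.29, adjusted p = 0.535) and Vamp2 at 1.12 (SE 0.42, adjusted p = 0.211) did not pass. Without control replicate 5, 10 of 51 members passed, 7 higher and 3 lower, beside 1826 of 15612 genes. Without control replicate 7, 2 of 52 passed, beside 496 of 15888 genes. Replicate 5 had 18.1 M total counts, the other controls 3.60 M to 4.52 M and the Cre somas 15.6 M to 19.6 M. Its large-diameter sensory neuron markers summed to 397 CPM, those of the other controls to 1774 to 1999.5 CPM and those of the Cre somas to 259 to 368 CPM.

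The same difference between compartments in batch 1, axon minus soma in Cre over control libraries, passed for 0 of 54 members, beside 0 of all genes. At an unadjusted p under 0.05 in edgeR stood 13 members, beside 3133 of 15355 genes. DESeq2 called 0 members, beside 567 of 15355 genes. Syt16, Stx11, Stx18, Snap29, Vamp1 and Syt3 had the smallest p values, with adjusted p from 0.109 to 0.157. Several of these had 3 counts or fewer in each batch 1 soma control, so their fitted sizes are not given. Snap25 (-0.39), Syt1 (-1.47) and Vamp2 (0.62) had adjusted p of 0.915, 0.573 and 0.775. Without soma control replicate 3, 6 of 55 members passed, 1 higher and 5 lower, beside 1111 of 16277 genes.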

How the data were processed

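Each batch has 1 table of unnormalised gene counts, as the authors deposited it, with 55536 gene identifiers. Reads were aligned with STAR 2.7.2b to mm10, per the submitters' processing notes; the counting tool and its use of strand are not given in the sources used here. All identifiers matched GENCODE M21, which gave symbols and exon lengths. Genes were kept by filterByExpr (minimum count 10, minimum total 15), scaled by TMM and tested with the quasi-likelihood test of edgeR 4.0.16 in R 4.3.3 (limma 3.58.1), with Benjamini-Hochberg adjustment over all genes tested and a threshold of 0.05. Each comparison was fitted on its own groups, and DESeq2 1.42.0 was an alternative. Levels are CPM of total counts, computed here with pandas 2.3.3. Counts of groups that did not overlap, given beside all genes, used the TMM-normalised scale. The fitting code was run on simulated counts with the same relative spread for all genes and groups. The unequal spread of the real groups was not simulated. Total counts of 3.60 M to 19.6 M per library put the floor of 3 counts below 1 CPM.

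The genes named are Snap25, Syt1 and Vamp2 throughout, the members that passed in each comparison (at most 30), up to 6 by smallest p where fewer passed, the 2 highest of each family per exon length, and a fixed set of related pairs. Others (Vamp4 and Vamp7 in the central axon controls, Syt7 and Syt11 where they did not pass, Syt8 and Cplx3) were chosen after their values were seen. Members and lists were chosen with earlier results of these data known. The p-values measure the spread between the labelled replicates. Same-numbered libraries did not deviate together in any comparison in every pair, so replicate numbers were not used as pairs. Results for some genes are not reported here.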

Additional observations from a re-analysis of the deposited data

Results flagged for a closer look

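Of 126 sets of libraries checked for a library far from the others, 16 held one by Dixon's 95% critical value, a rule that by its construction marks about 1 in 20 sets by chance. In the central axon controls, Syn3 stood at 16.3 CPM in replicate 1, Snap23 at 18.8 CPM in replicate 4 and Stx4a at 236 CPM in replicate 3, each above the other 3 libraries. In the batch 1 Cre somas Syt4 stood at 805 CPM in replicate 4, where the others lay between 252 and 313 CPM. The batch 1 soma controls held 5 more such values. Syt4 at 664 CPM and Snap47 at 296 CPM were high in replicate a, Syn2 at 529 CPM in replicate 3, and Snap23 at 228 CPM and Vamp5 at 264 CPM in replicate 1. For Snap23 and Vamp5 the other controls lay at or below 0.324 and 0.108 CPM.

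In the batch 2 Cre somas Syn2 was low in replicate 7, at 208 CPM beside 224 to 225 CPM, and Snap23 was high in replicate 5, at 5.56 CPM. In the batch 2 soma controls Snap25 at 709.7 CPM and Snap23 at 35.7 CPM were high in replicate 8, Vamp3 at 159.9 CPM and Stx4a at 119 CPM in replicate 7, and the summed trafficking members at 3013 CPM in replicate 5.

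The difference between central and peripheral axons relative to soma passed edgeR's test for 13 members, on the log2 scale 7.56 for Syt3, 4.54 for Syt17, 3.43 for Snap47, 2.94 for Rab3b, 2.91 for Syn1, 2.63 for Syn2, 2.52 for Rab3a, 2.51 for Stx1a, 2.35 for Syt16, 2.07 for Cplx1, 2.06 for Snap25, 1.82 for Vamp2 and -3.49 for Vamp8. Axon type and batch enter this difference together, with the somas of each batch as its reference.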

How the results depend on the processing

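No member called in the axon against soma comparisons changed direction under any alternative run, but counts moved. With the 4 groups of a batch in one fit, 11 members passed for peripheral axon against soma and 0 for central axon against soma. In soma Cre against control 8 passed in batch 1 and 1 in batch 2. Of all genes 1404 of 15717, 15 of 15355, 2114 of 15355 and 175 of 15717 passed, in the same order. DESeq2 called 16 for central axon against soma and 7 and 4 in the batch 1 and batch 2 soma comparisons. It called 1 in central axon Cre against control and 2 for the peripheral axon difference of Cre over control. Of all genes it called 3144 of 14480, 1878 of 11667, 1162 of 15280, 217 of 14189 and 352 of 15717, in the same order. Library size alone gave 8 and 1 in the somas, beside 2244 of 11667 and 257 of 15280 genes. The median over all genes was then 0.36 in the batch 1 somas (-0.45 with TMM) and 0.50 for central axon against soma (0.05 with TMM). Without a filter, 3 passed for the central axon difference of Cre over control, beside 320 of 30488 genes. With the replicate block 0 passed in the batch 1 somas, beside 0 of all genes. For central axon against soma 14 passed (7 higher and 7 lower), beside 2226 of 14480 genes, and Syn3 lost its call. There 3 of 4 same-numbered pairs correlated above 0.1. No paired analysis was possible for peripheral axon against soma because these groups share no replicate numbers, nor for the axon types relative to soma, since the batch 2 somas carry other numbers. Leaving out 1 library gave 0 to 9 and 0 to 10 in the batch 1 and 2 somas, 3 to 15 and 24 to 37 for central and peripheral axon against soma, 12 to 18 between axon types, and 0 to 6 and 0 to 1 for the central and peripheral differences of Cre over control; the 1 was without peripheral axon control replicate 1. Some values that did not pass changed sign. In central axon Cre against control Syt1 was -0.0188 (RLE scaling), -0.0189 (DESeq2), -0.0435 (library size) and -0.0357 (one fit). Vamp2 was 0.0381 without a filter in peripheral axon Cre against control. In batch 1 somas Snap25 was -0.27 (RLE scaling), -0.28 (DESeq2) and -0.0412 (stricter filter), and Vamp2 0.61 (library size) and 0.17 (one fit). In batch 2 somas Snap25 was 0.00419 (no filter) and 0.0153 (one fit), and Vamp2 was 0.0948 by library size in central axon against soma. Leaving out 1 library gave Snap25 -0.21 to 0.13 and Syt1 -0.29 to 0.22 in central axon Cre against control, and Vamp2 -0.24 to 0.44 in the peripheral one. In batch 1 somas, where Stx4a, Stx16 and Vamp2 were far below 0 with all libraries and above 0 without control replicate 3, it gave Stx4a -5.474 to 0.10, Stx16 -7.957 to 2.39, Snap25 -0.20 to 0.52 and Vamp2 -3.15 to 0.77, and in batch 2 somas Snap25 -0.20 to 0.31. It gave Snap25 -0.0501 to 0.23 in central axon against soma, Vamp2 -0.12 to 4.17 in the central difference of Cre over control, and Syt1 -0.44 to 0.27 between axon types. The cause of these changes was not tested.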

Other observations

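The 2 count tables assigned reads of overlapping genes differently. Among 496 genes that lie wholly inside the exons of a single opposite-strand gene, counts of the inner gene came to 0% of those of the outer gene in batch 1 and to 16.9% in batch 2, over outer genes with at least 1000 counts. The cause was not tested. Among the members, Stx18 (32.3% of exon length), Syt12 (17.2%), Syt4 (14.5%), Syn3 (14.1%) and Snap47 (11.6%) share the most exon sequence with opposite-strand genes.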
